A study of Mus musculus with 12 samples.

Results

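Mouse embryonic fibroblasts lacking ATF6b were compared with and without tunicamycin at the level of their mature miRNAs. The miRNAs described are the 150 mouse miRNAs, of 611 on the array, that the scanner software called detected on both arrays of at least 1 of the 3 knockout groups. Of these 150, 102 were detected on all 6 knockout arrays. The knockout cells (genotype ATF6bKO, C57BL/6 background) were untreated on 2 arrays, treated with 2 µg/mL tunicamycin for 12 h on 2 arrays, and treated for 24 h on 2 arrays. Wild-type fibroblasts (ATF6bWT, same background) underwent the same treatments on the other 6 of the 12 arrays. They serve here mainly for the test of whether the 2 genotypes responded differently. Their arrays also enter the scaling, the floor, the set of miRNAs tested and the estimate of spread behind the knockout p-values. Per the series' design text, the 2 arrays of a group come from independent experiments, and the miRNAs it sought were those answering to 12 h of tunicamycin in a way that depends on ATF6b. Nothing in the labels says how many embryos or clones the cells came from, so the p-values measure the spread between these experiments, with arrays treated as independent. No probe on a miRNA array reads the Atf6b transcript, which leaves the genotypes as labelled, unchecked.

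Tunicamycin blocks N-linked glycosylation, so that unfolded glycoproteins collect in the endoplasmic reticulum and set off the unfolded protein response. The response is carried by the sensors IRE1 and PERK and by ATF6, a membrane-bound transcription factor that is cut free in the Golgi under stress; ATF6b is its paralogue. Mature miRNAs are short RNAs that guide Argonaute proteins to messenger RNAs, mainly through the seed, bases 2 to 8 counted from the 5′ end. Fibroblast miRNAs such as miR-21, miR-199a and miR-214 mark mesenchymal cells, whereas the miR-200 family marks epithelial cells, where it represses the transcription factors Zeb1 and Zeb2.

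The sequences that carry the main results are printed with the seed in capitals; they come from RefSeq on build GRCm38.p6, in which 27 of 30 array names sought were found. The first set holds miRNAs that were not detected in untreated knockout cells and were called higher at both times of treatment. miR-200c lies at chr6:124718324-124718346 and miR-141 at chr6:124717917-124717938, both on the minus strand and 385 bases apart, and miR-200b lies at chr4:156055685-156055706 on the minus strand. miR-200c and miR-200b share a seed, and the seed of miR-141 differs from it by U4C, with positions counted from the 5′ end of the miRNA.
miR-200c: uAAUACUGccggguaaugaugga
miR-200b: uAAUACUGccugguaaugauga
miR-141: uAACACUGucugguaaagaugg
miR-7a: uGGAAGACuagugauuuuguugu
miR-96: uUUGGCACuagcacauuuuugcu
miR-196a: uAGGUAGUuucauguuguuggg

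The second set comes from the miR-17-92, miR-106b-25 and miR-106a-363 clusters, 9 of whose mature miRNAs rose. It is shown because 4 of them share 1 seed across 3 chromosomes: miR-20a at chr14:115044183-115044205, miR-106b at chr5:138165787-138165807, miR-93 at chr5:138165574-138165596 and miR-20b at chrX:52742159-52742181. The seed of miR-18a differs from theirs by A4G. miR-19b and miR-92a each have a copy on chromosome 14 and another on chromosome X with the same mature sequence, so their signal cannot be assigned to 1 cluster.
miR-20a: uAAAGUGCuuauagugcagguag
miR-20b: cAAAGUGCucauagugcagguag
miR-106b: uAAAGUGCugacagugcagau
miR-93: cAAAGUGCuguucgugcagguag
miR-18a: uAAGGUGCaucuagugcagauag
miR-19a: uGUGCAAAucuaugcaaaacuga
miR-19b: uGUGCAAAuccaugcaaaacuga
miR-92a: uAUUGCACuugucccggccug
miR-25: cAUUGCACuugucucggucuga

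The third set is shown for contrast: miR-411*, miR-154*, miR-342-3p and miR-30c fell at 1 or both times, and miR-31 kept its level in knockout cells. miR-411* (chr12:109710225-109710246) and miR-154* (chr12:109738474-109738495) lie on the plus strand of chromosome 12, in the imprinted Dlk1-Dio3 miRNA clusters. miR-31 lies at chr4:88910614-88910635 on the minus strand.
miR-411*: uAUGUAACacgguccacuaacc
miR-154*: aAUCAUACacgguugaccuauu
miR-342-3p: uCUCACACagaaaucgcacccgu
miR-30c: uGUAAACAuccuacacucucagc
miR-31: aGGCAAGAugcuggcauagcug

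A level is given here as the log2 of a miRNA's summed probe intensity over the array's 75th percentile among the 93 miRNAs detected on all 12 arrays, with a floor at -5.71. That percentile was 623 and 599 on the untreated knockout arrays, 446 and 246 at 12 h, and 412 and 208 at 24 h, replicate 1 first, so that both treated arrays of replicate 2 were dim. They also detected fewer of the 150 miRNAs, 124 at 12 h and 112 at 24 h, against 138 to 144 on the other 4 knockout arrays. The untreated arrays shared a slide and the treated ones another, and therefore slide and treatment cannot be told apart in any comparison of treated with untreated cells. Of 19 fibroblast marker miRNAs on the array, 15 to 17 were detected on each knockout array. None of the endothelial or liver markers was detected on a knockout array, at most 1 muscle and 1 pluripotency marker was, and blood and neural lists had miR-155 and miR-129-3p as their detected members. As these are bulk RNA samples, fewer cells of a type and less of a miRNA per cell cannot be told apart.

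In untreated knockout cells the 10 brightest miRNAs were miR-21, miR-22, miR-125b-5p, miR-199a-3p, miR-720, miR-24, miR-23a, miR-214, miR-140 and let-7a, in an order that also reflects how brightly each probe binds. miR-720 was named as a miRNA on this array and has since been recognised as a transfer RNA fragment. miR-21, the abundant fibroblast miRNA, had levels of 4.72 and 4.65 untreated, 4.97 and 5.22 at 12 h, and 5.02 and 4.96 at 24 h. Its changes of 0.41 ± 0.15 (SE) and 0.30 ± 0.15 did not pass the test. Among the 10, let-7a was called higher and miR-214 lower at both times, and the other 8 were called at neither.

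At 12 h, 36 of the 150 miRNAs were called higher and 7 lower (limma, adjusted p under 0.05 over 176 miRNAs tested). Across all 176, 21.6% were called higher and 3.98% lower. At 24 h the calls were 40 higher and 9 lower, against 25.6% higher and 5.11% lower over all tested. Of the miRNAs called higher, 35 were called at both times, 1 at 12 h alone and 5 at 24 h alone; of those called lower, 5, 2 and 4. The 2 time points share their untreated arrays, so their overlap is not independent. Without knockout untreated replicate 1, 30 were called at 24 h in place of 49, and 34 in place of 53 for the mean of both times. The number of falls called depended on single arrays: without knockout untreated replicate 1 they numbered 1 at 12 h and 1 at 24 h. Without either 12 h array 2 were called at 12 h and 5 at 24 h, and at 24 h there were 2 without 24 h replicate 2 and 14 without 24 h replicate 1. With both times averaged, 42 were called higher and 11 lower (25.6% and 6.25% of all tested). The median change of all tested was 0.25 at 12 h and 0.15 at 24 h, and changes should be read against it.

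The scaling set how many miRNAs were called. With quantile normalization 19 were called higher and 8 lower at 12 h, 16 and 5 at 24 h, and the median change over all tested became -0.03 and -0.09. With the percentile taken over every mouse miRNA on the array, 12 and 9 were called higher and 0 lower, and the medians became 0.03 and -0.04. In intensity before scaling, both treated arrays exceeded both untreated arrays for 19 of the 36 miRNAs called higher at 12 h and 16 of the 40 at 24 h; over all 176 tested this held for 15.9% and 10.2%. Normexp background correction, which here added an offset of 50 to each spot before scaling, left 2 calls at 12 h, miR-200c and miR-20a. It left 0 at 24 h, where 12 had an unadjusted p under 0.05 with limma. Under the main scaling and each of quantile normalization, the percentile over all miRNAs, the percentile over the miRNAs detected on the 6 knockout arrays and the software's total gene signal, 8 miRNAs were called higher at 12 h: miR-200c, miR-141, miR-200b, miR-19a, miR-20a, miR-106b, miR-375 and miR-590-5p. At 24 h 4 were, namely miR-200c, miR-141, miR-200b and miR-19a, and no fall was called under all 5 at either time.

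**Figure D1:**
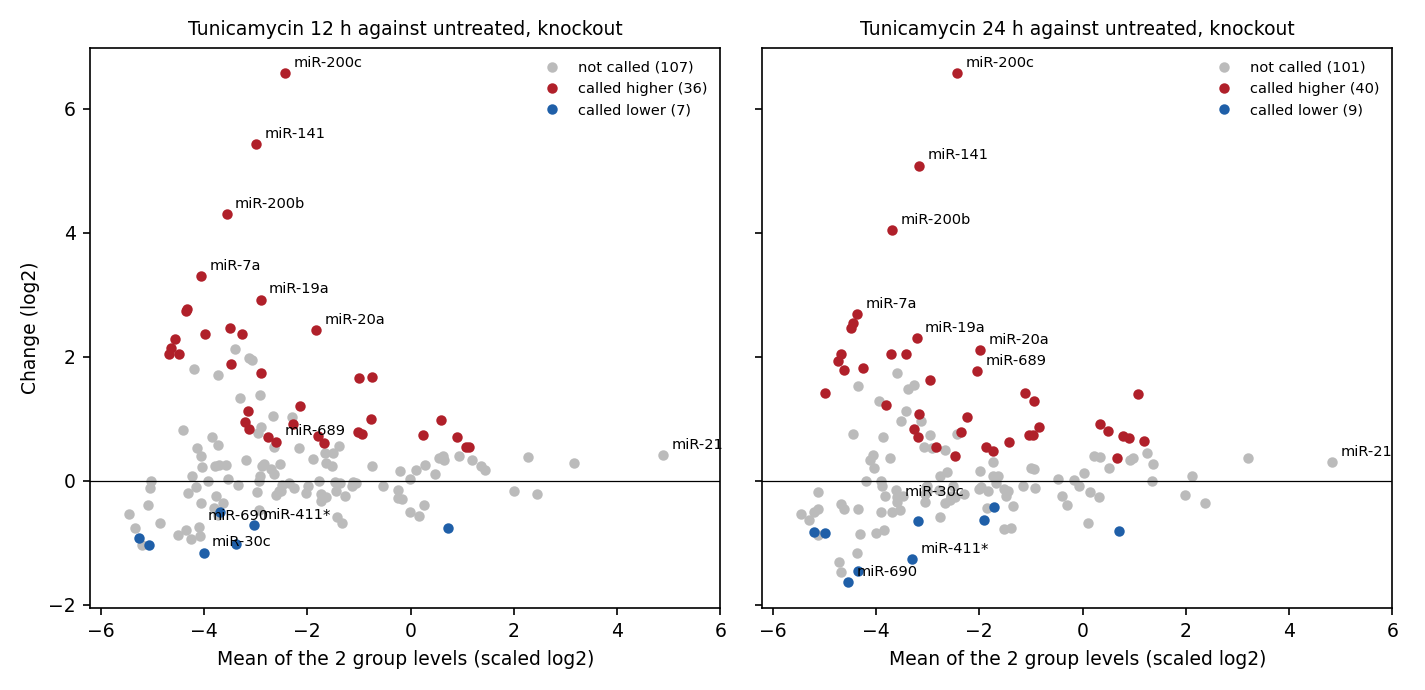
Change (log2) against the mean of the 2 group levels (scaled log2) for each of the 150 miRNAs at 12 h (left) and 24 h (right) of tunicamycin against untreated knockout cells; red and blue points passed the limma test. The 3 miR-200 family members stand at the top of both panels, with changes of 4.04 to 6.57, where the untreated level is the floor; the lowest called point is miR-690 at 24 h, plotted at -1.64 with its 24 h level undetected.

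The 4 largest rises at each time were of miRNAs not detected in untreated knockout cells. In all, 9 members were undetected on both untreated arrays, and 6 of these 9 were detected on all 4 treated arrays: miR-200c, miR-141, miR-200b, miR-7a, miR-96 and miR-466g. The other 3, miR-196a, miR-375 and miR-590-5p, were detected on both 12 h arrays and on 1 of the 2 arrays at 24 h. Because the untreated group has only a bound, a rise is given as at least the treated group's mean over a limit for each untreated array. That limit is the higher of the array's lowest detected signal and the miRNA's own level, floor included. On untreated replicate 2 the lowest detected signal was -10.67, so the floor of -5.71 stood in for miRNAs lying at it. These folds therefore move with the floor and are bounds only under the main processing.

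miR-200c was at the floor on both untreated arrays and at 0.52 and 1.20 at 12 h and 0.64 and 1.08 at 24 h. It was at least 73.9-fold higher at 12 h (adjusted p = 3.6e-07) and at least 73.7-fold higher at 24 h (adjusted p = 3.61e-07). Every treated array stood far above every untreated one, and the unscaled intensities told the same order: -11.8 and -6.18 untreated against 641, 565, 642 and 439. miR-141, from the same stretch of chromosome 6, rose from the floor to -0.40 and -0.16 at 12 h and -0.62 and -0.65 at 24 h. That is at least 33.5-fold (adjusted p = 1.4e-08) and at least 26.2-fold higher (adjusted p = 2.33e-08). miR-200b, which shares the seed of miR-200c, went from the floor to -1.69 and -1.13 at 12 h and -1.85 and -1.48 at 24 h, at least 15.3-fold and 12.8-fold higher. The groups did not overlap for any of these miRNAs. These bounds rest on the floor and on the main background correction. With normexp the changes were 3.30 and 3.25 for miR-200c, 2.42 and 2.16 for miR-141, and 1.68 and 1.56 for miR-200b. Of these, miR-200c at 12 h was called. miR-200a was detected on the replicate 1 arrays of both treated groups alone, with levels of -4.29 and -4.68 there, so it was not among the 150, and miR-429 was detected on no knockout array.

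miR-7a, a miRNA abundant in endocrine cells, was at the floor untreated, at -2.57 and -2.25 at 12 h and at -3.17 and -2.90 at 24 h, at least 7.66-fold and 4.97-fold higher. miR-96, of the miR-183 cluster of sensory and epithelial cells, reached -3.14 and -2.81 at 12 h and -3.40 and -3.10 at 24 h, at least 5.18-fold and 4.28-fold higher. miR-196a, encoded within the Hox clusters, reached -3.34 and -2.55 at 12 h and -3.62 and -2.71 at 24 h, at least 5.27-fold and 4.52-fold higher. All 4 treated arrays exceeded both untreated arrays for each of them. miR-375, known from pancreatic islets and secretory epithelium, reached -3.74 and -3.39 at 12 h and -3.41 and -3.90 at 24 h, at least 3.44-fold and 3.23-fold higher. miR-590-5p reached -4.15 and -3.16 at 12 h and -4.24 and -4.33 at 24 h, at least 3.23-fold and 2.09-fold higher. All 5 passed the limma test at both times, with adjusted p from 1.56e-06 to 0.00581. miR-466g did not: its untreated levels were -3.81 and -5.11 and its changes of 2.12 ± 1.52 (SE) and 1.73 ± 1.52 had adjusted p of 0.342 and 0.448.

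miR-320 resembled this group in level. It was at the floor on both untreated arrays, one of which nevertheless carried a detection call, and at -3.38 and -3.47 at 12 h and -3.50 and -4.06 at 24 h (adjusted p = 0.0011 and 0.00317).

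**Figure D2:**
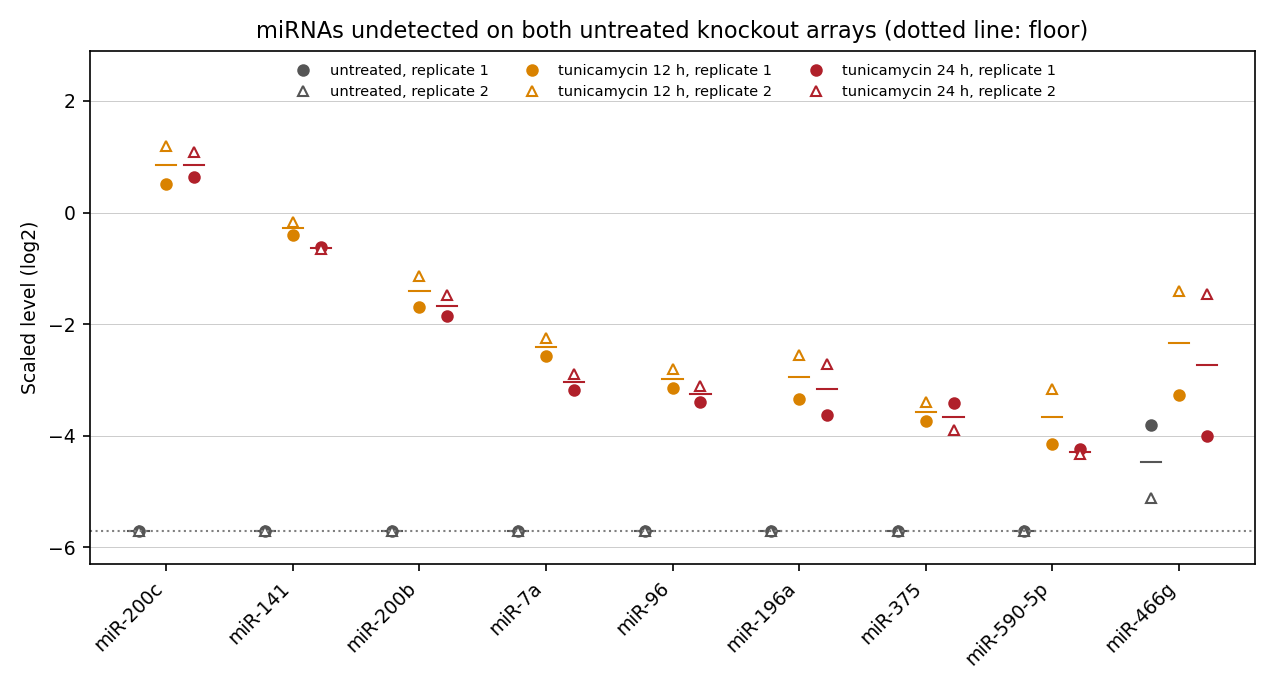
Scaled level (log2) of the 9 miRNAs that were undetected on both untreated knockout arrays; filled circles are replicate 1, open triangles replicate 2, short lines group means and the dotted line the floor at -5.71. For 8 of the 9 both untreated arrays lie at the floor and all 4 treated arrays above it; miR-466g had untreated levels of -3.81 and -5.11 and treated levels that differed by replicate.

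Several of these miRNAs are themselves epithelial markers, so the following counts describe the same rises. Of 14 markers on the array, 5 were among the 150 (miR-200c, miR-141, miR-200b, miR-96 and miR-375), and all 5 were called higher at both times. These 5 were undetected untreated and entered the 150 through treated arrays alone. That already favours a rise, so nothing is read from the count. The summed level of the 14, not in log2, was 0.271 and 0.268 on the untreated arrays, where 0 were detected, and 2.89 to 4.16 on the treated arrays, where 4 to 7 were detected. On the 6 wild-type arrays the same sum ran from 0.289 to 0.351. Each marker at the floor adds 0.0191 to a sum. The untreated knockout sums are therefore nearly all floor, the wild-type sums include it too, and no measured fold follows. Of the 14, 7 were detected on no knockout array, among them miR-205, miR-203, miR-182 and miR-429. The summed level of the 19 fibroblast markers was 58.1 and 52.6 untreated and 56.7 to 66.3 after treatment. The part of other cell types in these rises was not tested.

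All 9 measured members of the miR-17-92, miR-106b-25 and miR-106a-363 clusters rose at both times. Transcription of the first of these is driven by Myc and E2F, and its products favour proliferation. miR-17*, the passenger strand of miR-17, was outside the list of 9; it was detected untreated and its changes of 0.00 and -0.18 were not called. The median change of the 9 was 2.36 at 12 h and 1.81 at 24 h, against 0.25 and 0.15 over all tested. miR-17 itself, miR-18b and miR-363 were detected on no knockout array.

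miR-19a had levels of -4.37 and -4.35 untreated, -1.52 and -1.37 at 12 h, and -1.96 and -2.17 at 24 h. It rose by 2.92 ± 0.19 (SE, n = 2 arrays a group; limma adjusted p = 1.32e-05) and by 2.30 ± 0.19 (adjusted p = 7.4e-05), or 7.55-fold and 4.91-fold. miR-20a went from -3.04 and -3.04 to -0.69 and -0.54 at 12 h and -0.91 and -0.95 at 24 h, a rise of 2.43 ± 0.11 and 2.11 ± 0.11. For both miRNAs the arrays of a group lay close together and the treated arrays far above the untreated ones. The other members with the seed of miR-20a moved by like amounts, from 2.36 to 2.46 for all 4 at 12 h and from 1.81 to 2.11 at 24 h.

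miR-106b rose from -4.53 and -4.36 to -2.15 and -1.99 at 12 h and -2.24 and -2.54 at 24 h. miR-93, its neighbour in an intron of Mcm7, rose from -4.97 and -5.36 to -2.80 and -2.80 at 12 h and -2.99 and -3.72 at 24 h. miR-25, the third miRNA of that cluster, rose least, by 0.84 ± 0.14 and 0.71 ± 0.14, and its unscaled intensities overlapped between groups. The remaining changes at 12 h and 24 h were 2.46 and 2.04 for miR-20b, 1.88 and 1.22 for miR-18a, 1.67 and 1.29 for miR-19b, and 1.65 and 1.42 for miR-92a. All 9 stayed positive at both times with each scaling, but fewer were called: 7 and 6 with quantile normalization, 4 and 1 with the percentile over all miRNAs, and 6 and 5 with the software's total gene signal. With normexp background correction the medians were 1.08 and 0.99, with 1 and 0 called.

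Changes of about 1 or less were called in growth-restraining families, where the share called higher over all tested was 21.6% at 12 h and 25.6% at 24 h. All 3 measured members of the miR-15 and miR-16 group, which restrain the cell cycle and Bcl2, were called higher at both times. miR-15a had levels of -1.23 and -1.30 untreated, -0.28 and -0.25 at 12 h, and -0.35 and -0.47 at 24 h. miR-16 went from -2.15 and -2.14 to -1.48 and -1.38 at 12 h and -1.46 and -1.73 at 24 h. miR-15b rose by 0.78 ± 0.13 (SE) and 0.73 ± 0.13.

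All 9 let-7 family members were measured. Of these, 5 were called higher at 12 h and 7 at 24 h, against 21.6% and 25.6% over all tested. The family limits growth and is typical of differentiated cells. let-7f had levels of 0.59 and 0.51 untreated, 1.17 and 1.33 at 12 h, and 1.23 and 1.25 at 24 h, and let-7g rose by 0.76 ± 0.11 and 0.73 ± 0.11 (SE). let-7c and let-7d were called at neither time. The miR-29 family, which targets collagen messenger RNAs, had 3 of 3 members called higher at 12 h and 2 of 3 at 24 h, where miR-29a had a change of 0.37 and an adjusted p of 0.0545. The medians of these 3 families were positive with every scaling, but none of the let-7 and miR-29 calls remained with quantile normalization or the percentile over all miRNAs, and in unscaled intensity the groups overlapped: let-7a read 1118 and 1108 untreated against 1145, 677, 1133 and 610.

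Single members of other families rose as well. miR-148a, which targets DNA methyltransferases, rose from -3.76 and -3.77 to -2.14 and -1.92 at 12 h and -1.99 and -2.28 at 24 h, a change of 1.73 ± 0.17 and 1.63 ± 0.17 (SE). The software's total gene signal gave -0.23 and -0.53 for the same miRNA. miR-10a, of the Hox clusters, rose by 1.20 ± 0.13 and 1.02 ± 0.13, and miR-130b by 1.12 ± 0.15 and 1.07 ± 0.15. miR-29b*, the passenger strand of miR-29b, rose by 2.04 ± 0.32 and 1.78 ± 0.32 from levels near the floor.

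**Figure D3:**
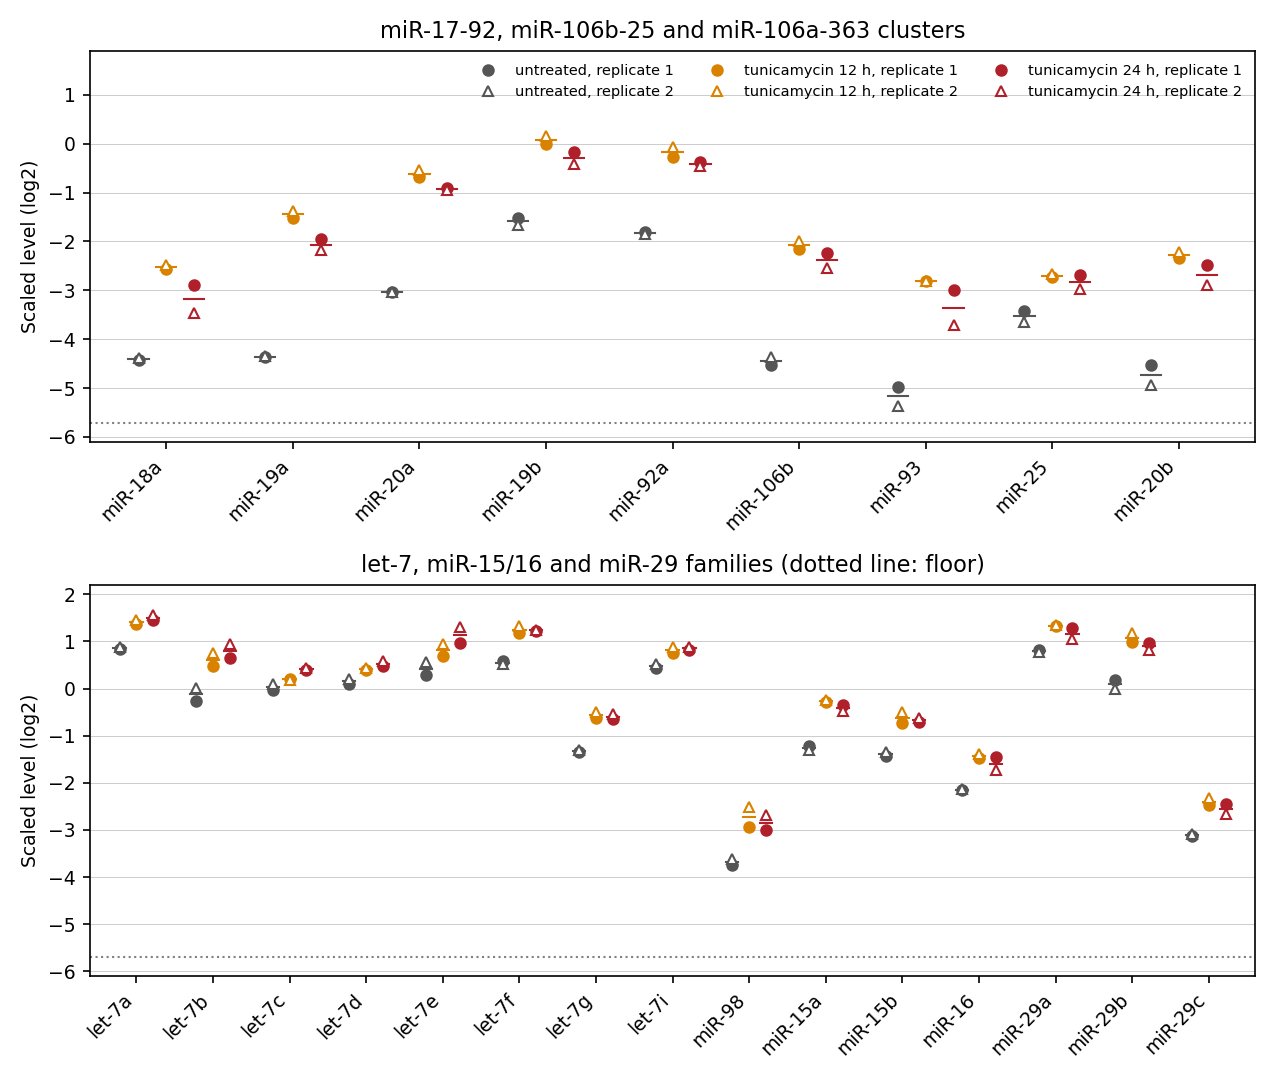
Scaled level (log2) on the 6 knockout arrays of the miR-17-92, miR-106b-25 and miR-106a-363 cluster members (top) and of the let-7, miR-15/16 and miR-29 families (bottom); filled circles are replicate 1, open triangles replicate 2, short lines group means and the dotted line the floor. Changes at 12 h run from 0.84 for miR-25 to 2.92 for miR-19a in the upper panel and from 0.17 for let-7c to 1.00 for miR-15a in the lower one.

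Falls were fewer and smaller. miR-411* had levels of -2.52 and -2.82 untreated, -3.43 and -3.34 at 12 h, and -3.84 and -4.01 at 24 h; it fell by 0.72 and 1.26 on the log2 scale (SE 0.15; limma adjusted p = 0.00751 and 0.000403). miR-342-3p, from an intron of Evl, went from -2.74 and -2.99 to -3.87 and -3.91 at 12 h and -3.28 and -3.76 at 24 h. miR-214, made with miR-199a from a transcript antisense to Dnm3, went from 1.22 and 1.00 to 0.47 and 0.22 at 12 h and 0.45 and 0.16 at 24 h. No treated array reached an untreated one for any of the 3. The other 3 members of the miR-199 and miR-214 clusters, miR-199b*, miR-199a-5p and miR-199a-3p, had changes of -0.17 to -0.58 at 12 h and -0.23 to -0.78 at 24 h and were not called.

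miR-30c stood at -3.08 and -3.78 untreated, -4.56 and -4.63 at 12 h, and -3.62 and -3.92 at 24 h. It fell by 1.16 at 12 h (SE 0.28, adjusted p = 0.0175), while its change of -0.34 at 24 h did not pass the test and the arrays overlapped. The other 4 miR-30 members were called at neither time. At 24 h miR-690 went from -3.78 and -3.66 to -5.00 and -5.71, at least 1.67-fold lower as it was detected on neither 24 h array, and miR-541 fell by 1.45 to -4.73 and -5.43.

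In contrast, 5 members were detected on both untreated arrays and on none of the 4 treated arrays: miR-134, miR-154*, miR-487b, miR-543 and miR-674*. All 5 were dim untreated, with levels from -4.11 to -5.53. miR-154* went from -4.24 and -4.87 to between -5.64 and -5.17, at least 1.17-fold lower at each time. miR-134 went from -4.65 and -4.93 to between -5.71 and -5.51 and passed the test at both times. Its untreated mean of -4.79 did not exceed the detection limit of either treated group, so no fold is given. The tested fall of miR-134 thus rests on treated levels that were not detected. Array brightness moved with detection: 25 members were detected untreated and on both replicate 1 treated arrays but missed on a dim replicate 2 array, and 0 showed the opposite. With normexp background correction the changes of miR-134, miR-154*, miR-342-3p and miR-411* became positive, and of the falls none was called. Normexp added an offset of 50 to each spot before scaling. In unscaled intensity untreated, miR-134 and miR-154* read 19.6 to 32.9, and miR-342-3p and miR-411* 75.5 to 109. The part of the offset in these signs was not tested.

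The imprinted Dlk1-Dio3 region on chromosome 12 encodes one of the largest mouse miRNA clusters, expressed from the maternal chromosome. Of 54 listed miRNAs on the array, 27 were among the 150. The strands miR-411* and miR-154*, called lower at both times, come from the same region but were not on the list. At 12 h 0 of the 27 were called higher and 2 lower (miR-134 and miR-369-5p), and at 24 h 0 higher and 4 lower (miR-134, miR-300, miR-410 and miR-541). Over all tested, 21.6% and 25.6% were called higher and 3.98% and 5.11% lower, so little is read from the few falls. Their median change was -0.17 and -0.39, and 0.40 and 0.39 with normexp background correction. With the scan run as a fixed block 6 and 12 were called lower, and with the replicate number as a block 5 and 10. The scan run block takes out differences between replicates 1 and 2 within each slide only. Treatment stays confounded with slide and scan under it. miR-410 had levels of -1.48 and -1.52 untreated, -1.78 and -1.76 at 12 h, and -1.85 and -2.00 at 24 h. miR-127 and miR-379, bright members of the clusters, had changes of -0.68 ± 0.33 and -0.28 ± 0.14 (SE) at 12 h and were not called.

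MiRNAs tied to the unfolded protein response in earlier work were compared next. Of 14 miRNAs reported to rise in that response, 8 were among the 150. At 12 h 3 were called higher (miR-7a, miR-29a and miR-29b) and 1 lower (miR-214). At 24 h 2 were called higher (miR-7a and miR-29b) and 1 lower (miR-214). The shares over all tested were 21.6% and 25.6% higher and 3.98% and 5.11% lower. miR-199a-5p, reported to target ATF6, had levels of 0.58 and 0.33 untreated, -0.05 and -0.19 at 12 h, and 0.00 and -0.48 at 24 h, changes of -0.57 ± 0.23 and -0.69 ± 0.23 (SE) with adjusted p of 0.114 and 0.0524. miR-23a, miR-27a and miR-24 had changes of -0.01 to 0.40 over both times and were not called. The median of the 8 was 0.31 at 12 h and 0.30 at 24 h, close to the 0.25 and 0.15 of all tested, and -0.07 and -0.14 with quantile normalization. miR-30c-2*, reported to repress Xbp1, was detected on no knockout array.

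Of 14 miRNAs reported to fall or to be cleaved in the response, 9 were among the 150. Of these, 4 were called higher at both times (miR-106b, miR-93, miR-25 and miR-96) and 0 lower, beside 21.6% and 25.6% called higher over all tested. The first 3 form the miR-106b-25 cluster, which PERK signalling was reported to repress. IRE1 was reported to cleave the precursors of miR-17, miR-34a, miR-96 and miR-125b. Of these, miR-17 was undetected, miR-34a had changes of 0.02 ± 0.12 and 0.12 ± 0.12, miR-96 rose as above, and miR-125b-5p had changes of -0.22 ± 0.27 and -0.36 ± 0.27 (SE). miR-221, miR-30d and miR-181a were not called either. The median of the 9 was 0.56 at 12 h and 0.12 at 24 h, and the 24 h median was -0.11 with the percentile over all miRNAs and -0.16 with the software's total gene signal.

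Whether knockout cells responded differently from wild-type cells was tested as the difference between the 2 responses, without pairing same-numbered arrays. At 12 h, 37 of the 150 had a higher response in knockout cells and 3 a lower one, against 22.2% and 2.27% of all tested. At 24 h, 34 were higher and 1 lower, against 19.9% and 0.568%. The whole distribution was shifted, with a median difference over all tested of 0.37 and 0.44, which became -0.43 at 12 h with normexp background correction. With quantile normalization 13 were called higher and 2 lower at 12 h and 11 and 1 at 24 h, and with the percentile over all miRNAs 4 and 0 at each time, those 4 being miR-200c, miR-141, miR-200b and miR-31. Leaving out 1 array at a time gave 21 to 42 calls at 12 h, and 10 to 42 at 24 h. At 12 h the count fell to 21 without wild-type untreated replicate 1, 23 without wild-type 12 h replicate 2, and 24 and 25 without knockout 12 h replicates 2 and 1. At 24 h it fell to 12 and 18 when knockout untreated replicate 2 or 1 was dropped, 10 without wild-type 24 h replicate 2, 13 without wild-type untreated replicate 1, and 20 without knockout 24 h replicate 1.

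miR-200c, miR-141, miR-200b, miR-375 and miR-590-5p were at the floor on all 6 wild-type arrays. Their response differences therefore equal the knockout changes: 6.57 ± 0.32 at each time for miR-200c, 5.43 and 5.08 for miR-141, 4.30 and 4.04 for miR-200b, and 2.14 and 2.05 for miR-375 (limma adjusted p from 1.96e-07 to 0.00131). Since these are set against the floor, they depend on where it lies: at 12 h the difference for miR-200c was 4.57 with the floor raised 4 times and 8.57 with it lowered 4 times. With normexp it was 1.98 and was not called. miR-7a rose in both genotypes, at least 7.66-fold and 4.97-fold in knockout cells and by 1.94 and 1.37 (log2) in wild type.

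miR-31, a fibroblast miRNA linked to invasion, showed the reverse arrangement. In knockout cells it stayed at -1.31 and -1.40 untreated, -1.24 and -1.52 at 12 h, and -1.24 and -1.79 at 24 h. In wild-type cells it had like untreated levels of -1.48 and -1.72 and lay at the floor, undetected, on all 4 treated arrays. By the same kind of bound, which also uses the floor, it was at least 13-fold lower at 12 h and 11.4-fold lower at 24 h in treated wild-type cells. With the floor in place of those levels, the response difference was 4.08 and 3.94 (adjusted p = 2.96e-05 and 3.82e-05), from 2.08 to 6.08 at 12 h and from 1.94 to 5.94 at 24 h as the floor was raised or lowered 4 times, and 0.21 and 1.22, not called, with normexp. Its passenger strand miR-31* followed, at -3.18 and -3.52 untreated, -2.96 and -3.06 at 12 h and -3.11 and -4.09 at 24 h in knockout cells, against the floor on the 4 treated wild-type arrays.

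Of the 37 with a higher response at 12 h, 21 were not called in knockout cells, and 20 of the 21 were called lower in wild type; at 24 h 18 of 34 were not called in knockout cells and all 18 were called lower in wild type. Over all tested, 23.9% were called lower in wild type at 12 h and 29.5% at 24 h; a positive difference without a knockout change already favours a fall in wild type, so nothing is read from these counts. miR-143, a miRNA of smooth muscle and myofibroblasts, had knockout changes of 0.15 ± 0.36 and -0.24 ± 0.36 against -1.89 and -2.14 in wild type. miR-23b had 0.11 ± 0.19 and 0.20 ± 0.19 against -1.79 and -1.72, and miR-24, made from the same cluster, 0.18 ± 0.24 and -0.01 ± 0.24 against -0.95 and -1.15. miR-99a had 0.27 ± 0.12 and 0.39 ± 0.12, while in wild type it went from -4.06 and -4.27 to the floor on all 4 treated arrays. The treated wild-type arrays of replicate 1 nevertheless carried a detection call for it, so no fold is given. miR-34a, a p53 target, had 0.02 and 0.12 against -0.86 and -0.72. Of the 3 lower at 12 h, miR-15b rose by 0.78 in knockout cells and 1.60 in wild type, miR-16 by 0.72 and 1.41, and miR-30c had -1.16 against 0.39.

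**Figure D4:**
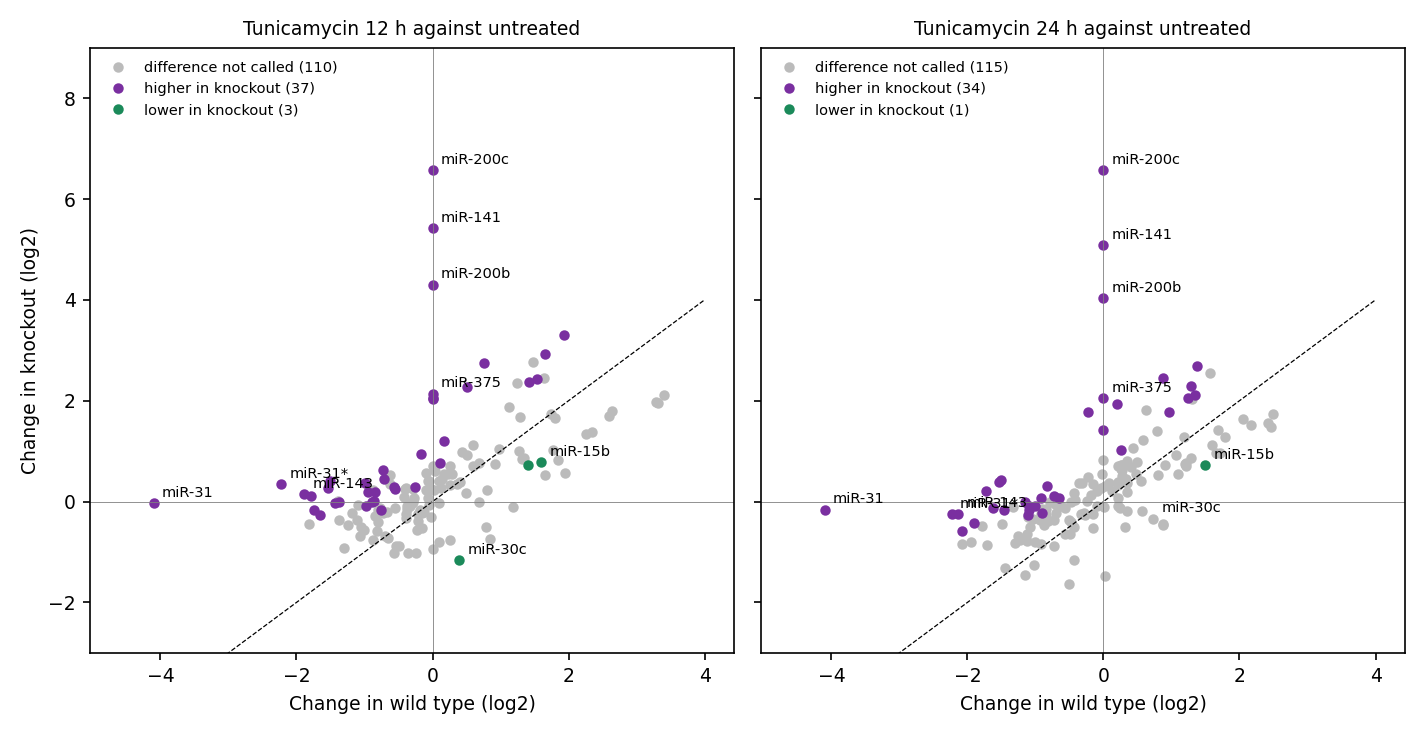
Change (log2) in knockout cells against change in wild-type cells for each of the 150 miRNAs at 12 h (left) and 24 h (right) of tunicamycin; the dashed line marks equal change, and purple and green points passed the test of the difference. miR-200c, miR-141 and miR-200b sit at 0 for wild type and at 4.04 to 6.57 for knockout, and miR-31 sits at -4.10, set by the floor, for wild type and at -0.03 and -0.16 for knockout.

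Between 12 h and 24 h of tunicamycin, 1 of the 150 was called (0.568% of all tested, with 14 of the 150 at an unadjusted p under 0.05). miR-689 had levels of -2.91 and -2.93 untreated, -2.32 and -2.27 at 12 h, and -1.27 and -1.03 at 24 h, a difference of 1.15 ± 0.16 (SE, adjusted p = 0.0189). The difference had the same sign in each replicate. miR-1224 went from 0.54 and 0.92 at 12 h to 1.59 and 1.93 at 24 h (1.03 ± 0.20, adjusted p = 0.0826), and miR-7a from -2.57 and -2.25 to -3.17 and -2.90 (-0.62 ± 0.15, adjusted p = 0.221). The call of miR-689 was lost in the fit of the 6 knockout arrays alone and when any 1 of the knockout arrays was left out. With that fit 0 were called by limma and 11 had an unadjusted p under 0.05.

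A further group differed widely between the replicates of the treated groups, and the difference ran the other way in untreated knockout cells. There were 9 members that stood higher on replicate 2 than on replicate 1 by over 1 (log2) in both treated knockout groups, 0 stood lower by that much, and all 9 did the same in both treated wild-type groups. They are miR-197, miR-466f-3p, miR-466g, miR-466i, miR-467a*, miR-467f, miR-574-3p, miR-669c and miR-877*. Of these, 5 are on the list of the large cluster in an intron of Sfmbt2. That list holds miR-467a but not its passenger strand miR-467a*. miR-574-3p, for example, read -3.19 and -4.89 untreated, -3.14 and -1.04 at 12 h, and -3.94 and -1.04 at 24 h. miR-877* read -2.97 and -5.04 untreated, -5.16 and -1.71 at 12 h, and -4.12 and -1.97 at 24 h. In untreated knockout cells replicate 2 was the lower one for all 9, with gaps from -2.61 (miR-197) to -0.05 (miR-669c). It was the lower one for 7 of the 9 in untreated wild-type cells. Members outside the 9, such as miR-127 and miR-143, also read lower on untreated knockout replicate 2, and their share was not counted. None of the 9 was called at either time. They were picked for wide replicate gaps, which enlarge the error, so nothing is read from that. The 7 listed Sfmbt2 cluster members among the 150 had median changes of 1.70 and 1.28 with 0 called. With the scan run as a fixed block 6 were called higher at 12 h and 5 at 24 h. That block takes out replicate differences within a slide and leaves treatment confounded with slide and scan.

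**Figure D5:**
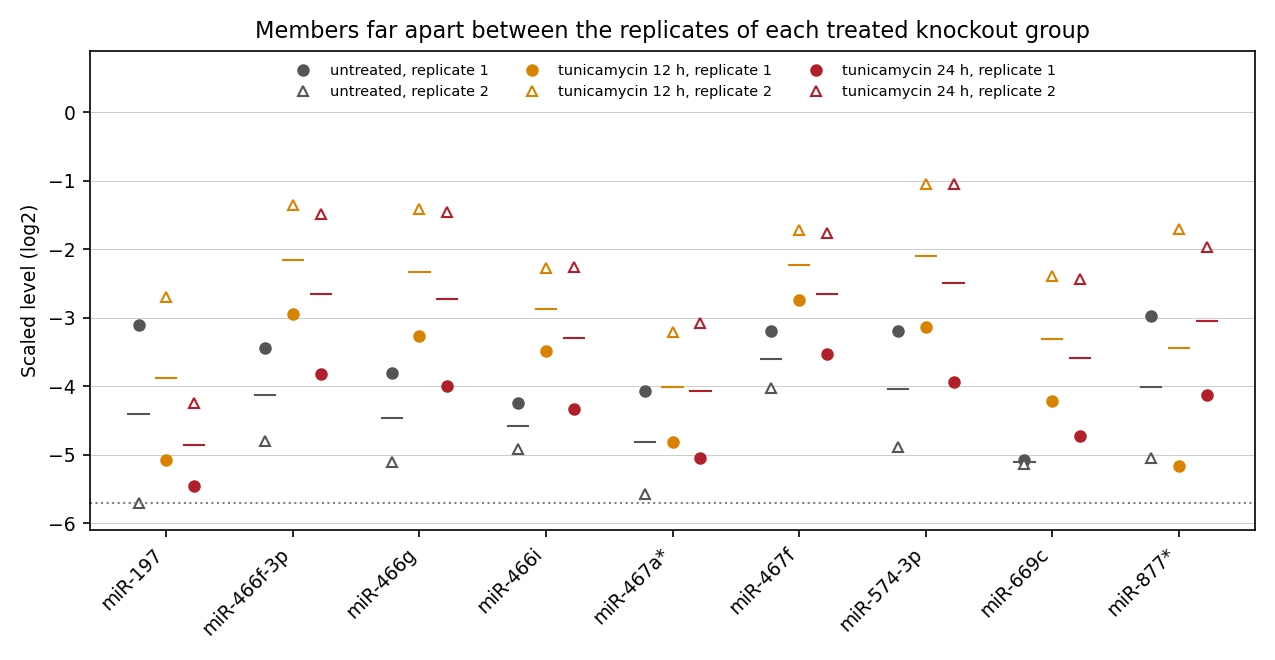
Scaled level (log2) on the 6 knockout arrays of the 9 miRNAs that differed by over 1 between replicates in both treated groups; filled circles are replicate 1, open triangles replicate 2, short lines group means and the dotted line the floor. In the treated groups the triangles lie above the circles for all 9, and in the untreated group below them.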

How the data were processed

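Per the labels' protocols, Cy3-labelled miRNA from 100 ng of total RNA was hybridised to 1-colour Agilent miRNA arrays. The authors deposited linear spot intensity; per the file headers, version 10.7.1.1 of Agilent's Feature Extraction read the scans. The authors' deposited table holds log2 values, which match the unscaled total gene signal in log2 and are empty where a miRNA was undetected. No spot was saturated. From the background-subtracted intensity, spots without outlier marks were averaged per probe, probes summed per miRNA, arrays scaled to the 75th percentile of 93 miRNAs detected on all 12 arrays, floored at 0.0191 of it (the median over arrays of the lowest detected signal) and log2 taken. limma 3.58.1 in R 4.3.3 fitted 6 groups over all 12 arrays (residual df 6, prior df 1.65), and p-values were adjusted by Benjamini and Hochberg's method over 176 mouse miRNAs detected on both arrays of any group; called means adjusted p under 0.05. Groups that lie wholly at the floor add no spread for that miRNA, whose error can then be too small. The fit was tested on simulated data.

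The 150 miRNAs, the lists and the rule for named miRNAs were chosen with earlier results of these data known. The rule names up to 10 rises and falls per time among called miRNAs whose arrays do not overlap, those gained or lost on all treated arrays, the 10 brightest, up to 6 response differences per direction, the 3 smallest p-values between times, and up to 4 members per list (every member of the unfolded protein response lists). Other miRNAs named were chosen after their values were seen. Alternatives changed normalization, background, probe summary, floor, filter, block and arrays. The array files hold median spot signals in place of mean signals, so normexp used the median, with an offset of 50. With 2 arrays a group, the number of arrays limits the precision.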

Additional observations from a re-analysis of the deposited data

Results flagged for a closer look

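Some miRNAs responded differently in the 2 genotypes by a test of the difference itself (limma, adjusted p under 0.05); values are knockout change minus wild-type change in log2. miR-200c differed by 6.57 at 12 h and 6.57 at 24 h, miR-141 by 5.43 and 5.08, miR-200b by 4.30 and 4.04, and miR-31 by 4.08 and 3.94. The difference was 2.14 and 2.05 for miR-375, 2.57 at 12 h for miR-31* and 2.01 at 24 h for miR-29b*. Below 0 were miR-15b, at -0.82 and -0.76, and at 12 h miR-30c at -1.55 and miR-16 at -0.69. The values for miR-200c, miR-141, miR-200b, miR-375, miR-31 and miR-31* are set against groups wholly at the floor and are not measured sizes: at 12 h they ran from 4.57 to 8.57 for miR-200c and from 2.08 to 6.08 for miR-31 as the floor was moved, and were 1.98 and 0.21 with normexp. With 2 arrays a group, no array was tested for standing apart from its group.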

How the results depend on the processing

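Counts of calls are over the 150 miRNAs and in the order 12 h, 24 h, mean of both times, 24 h against 12 h, and response difference at 12 h and 24 h; they were 43, 49, 53, 1, 40 and 35. Quantile normalization gave 27, 21, 31, 1, 15 and 12, the percentile over all miRNAs 12, 9, 14, 0, 4 and 4, the software's total gene signal 14, 10, 11, 0, 6 and 4, normexp 2, 0, 2, 0, 0 and 0, and the deposited log2 values 0 for all (limma; unadjusted p under 0.05 for 7, 11, 17, 1, 8 and 4). Of the calls, 83.7% were higher at 12 h, against 70.4% with quantile normalization and 100% with the percentile over all miRNAs. Without a detection filter the response differences numbered 22 and 16. Between times, 0 were called with the percentile over miRNAs detected on the 6 knockout arrays, 0 in the fit of those arrays alone, 0 with both treated knockout arrays of replicate 2 left out, and 2 over miRNAs detected on the 6 arrays. The scan run as a fixed block gave 71, 76, 85, 2, 53 and 55, and as a random block 43, 46, 48, 5, 63 and 59. The fixed block takes out replicate differences within a slide only. Treated and untreated arrays lie in different scans, so it does not adjust their comparison for slide or scan. The replicate number as a block gave 56, 66, 70, 1, 51 and 55. Deviations of same-numbered arrays correlated at 0.82 between the treated knockout groups. Between these and the untreated group they correlated at -0.46 and -0.20, so the numbers are not read as pairs of treated with untreated arrays. Between the genotypes the correlation was 0.60 untreated, 0.87 at 12 h and 0.92 at 24 h. The main fit leaves out this pairing. Its p-values for the response differences and for 24 h against 12 h therefore treat linked arrays as independent. A crossed pairing, chosen after seeing the data, gave 49, 48, 64, 1, 36 and 31. Leaving out 1 array at a time gave 30 to 43, 30 to 49, 34 to 57, 0 to 1, 21 to 42 and 10 to 42.

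Signs turned as follows, and the cause was not tested. With the deposited log2 values, which are unscaled, the values were -0.34 for let-7a 12 h, -0.42 for let-7a 24 h, -0.35 for let-7e 24 h, -0.19 for let-7f 12 h, -0.38 for let-7f 24 h, -0.69 for let-7i 24 h, -0.28 for miR-107 12 h, -0.59 for miR-107 24 h, -0.04 for miR-10a 24 h, -0.60 for miR-130b 12 h, -0.73 for miR-130b 24 h, -1.03 for miR-148a 12 h, -1.32 for miR-148a 24 h, -0.21 for miR-15a 24 h, -0.11 for miR-15b 12 h, -0.33 for miR-15b 24 h, -0.17 for miR-16 12 h, -0.42 for miR-20b 12 h, -0.35 for miR-29a 12 h, -0.27 for miR-29b 24 h, -0.18 for miR-29c 12 h, -0.52 for miR-29c 24 h, 0.41 for miR-30c 12 h, -0.28 for miR-689 12 h, -0.03 for miR-29b* response difference 24 h. With normexp they were 0.49 for miR-134 12 h, 0.61 for miR-134 24 h, 0.46 for miR-154* 12 h, 0.52 for miR-154* 24 h, 0.25 for miR-30c 12 h, 0.14 for miR-342-3p 12 h, 0.27 for miR-342-3p 24 h, 0.37 for miR-369-5p 12 h, 0.004 for miR-410 24 h, 0.17 for miR-411* 12 h, 0.11 for miR-411* 24 h, 0.37 for miR-541 24 h, 0.32 for miR-690 24 h, -0.27 for miR-31* response difference 12 h, -0.26 for miR-375 response difference 12 h. Quantile normalization gave -0.08 for let-7i 24 h, and the software's total gene signal -0.23 for miR-148a 12 h, -0.53 for miR-148a 24 h, 0.35 for miR-411* 12 h. Signal over background limits the dim replicate 2 treated arrays most.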
